A study of Mus musculus with 2 samples.

Results

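Molecular chaperones of the heat shock protein, J-domain and chaperonin families were described in mouse forebrain at embryonic day 11.5, with attention to how members that cells make at all times compared with members that stress induces. The members were the protein-coding genes of the GENCODE M21 annotation whose symbol begins with Hspa, Hspb, Dnaja, Dnajb, Dnajc or Cct followed by a number, or with Hsp90, together with Hspd1, Hspe1, Hsph1 and Tcp1. The annotation holds 81 such genes, and 80 of them were found by identifier among the 43346 Ensembl genes of both deposited tables, of which 21474 are protein coding. Hspa14 had no matching identifier and was not analysed here. Cct6a, a chaperonin subunit, is not typed as protein coding in that annotation and so is no member. Its values are given only where the chaperonin is described as a complex.

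The study measured total RNA from healthy B6NCrl mouse embryos, with male and female forebrains pooled. There was 1 group of 2 libraries, numbered as biological replicates: replicate 1 came from 109 embryos and replicate 2 from 88. Each started from 10 ng of RNA longer than 200 nt with added spike-in RNAs. With 1 group, no treatment or heat-shocked sample was analysed here, and the comparisons below are between genes within the same libraries or between the embryo pools.

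HSP70 proteins bind exposed hydrophobic stretches of unfolded proteins and release them in a cycle driven by ATP, J-domain proteins (DNAJ) bring them their clients and start ATP hydrolysis, and nucleotide exchange factors reset them. HSP90 acts later, on nearly folded kinases and receptors, and the ring-shaped chaperonin TRiC encloses actin and tubulin while they fold. In most cells some of these genes, such as Hspa8 and Hsp90ab1, are transcribed at all times, while others, such as Hspa1a, are switched on by the heat shock factor Hsf1 through short GAA and TTC repeats near their start sites.

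Annotated genes held 23165260 expected counts in the first pool and 33597028 in the other, and the 80 members held 366591 and 539412 of them. Levels are given as TPM, a relative transcript abundance that is divided by transcript length, and a gene is called detected at 1 TPM or more in both libraries. That held for 58.6% of all protein-coding genes, the share to read beside every count of detected genes below. All 6 forebrain marker genes were detected, with summed levels of 394 and 381 TPM, and 1 of 6 markers of posterior neural tube (Gbx2). The pools also held other cells: 6 of 6 erythroid genes (summed 12778 and 13835 TPM), 5 of 5 mesenchyme, 5 of 5 endothelial and 5 of 5 microglia genes were detected. None of 5 cardiac, 4 lens or 5 germ cell genes was. How much of any chaperone level came from these other cells was not tested, and in such bulk samples fewer cells of a type cannot be told apart from less RNA per cell.

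Start sites of the members that carry the comparison are shown first, since heat shock genes are switched on through sequences there. The RefSeq table of promoters (GRCm38.p6), which covers 250 bases before to 50 bases after each gene start, matched 65 of the 80 members. Both strands were searched. Hspa1a and Hspa1b, the copies of the stress-induced HSP70, lie side by side on chromosome 17 and their promoters differ at 4 of 300 positions. Capitals mark the inverted repeat GAANNTTC, 2 units of the heat shock element, which begins 104 bases before the start in both.
Hspa1a, chr17:34972107-34972406, minus strand: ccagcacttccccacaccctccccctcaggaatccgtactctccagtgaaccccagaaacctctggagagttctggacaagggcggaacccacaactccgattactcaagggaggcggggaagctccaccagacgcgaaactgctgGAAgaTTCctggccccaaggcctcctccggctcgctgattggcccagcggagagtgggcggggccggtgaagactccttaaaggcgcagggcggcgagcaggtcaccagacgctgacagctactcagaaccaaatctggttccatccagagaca
Hspa1b, chr17:34959189-34959488, minus strand: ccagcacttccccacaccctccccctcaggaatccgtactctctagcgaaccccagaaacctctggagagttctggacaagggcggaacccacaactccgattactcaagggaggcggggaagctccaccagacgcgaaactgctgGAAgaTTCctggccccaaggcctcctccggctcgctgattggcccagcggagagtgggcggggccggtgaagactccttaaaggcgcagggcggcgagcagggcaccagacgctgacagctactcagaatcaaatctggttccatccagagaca

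A longer element lay upstream of Hspe1. Hspe1 and Hspd1 encode the mitochondrial chaperonin's lid, HSP10, and its barrel, HSP60, and have neighbouring starts on opposite strands of chromosome 1. Capitals mark 4 alternating TTC and GAA units with 2 bases between neighbours, 89 bases before the Hspe1 start. The same bases, read on the other strand, lie in the promoter of 1 of the Hspd1 starts in the table. At least 3 such units in a row were held by 4 of 65 member promoters (Hspd1, Hspe1, Hsph1 and Dnajb6), beside 0.552% of 16317 protein-coding promoters. The Hspd1 and Hspe1 matches are the same bases, and the Hsph1 match lies 15 or 36 bases after the start, by the start used. Only exact GAA and TTC units were searched, so looser elements in other promoters would be missed.
Hspe1, chr1:55087898-55088197, plus strand: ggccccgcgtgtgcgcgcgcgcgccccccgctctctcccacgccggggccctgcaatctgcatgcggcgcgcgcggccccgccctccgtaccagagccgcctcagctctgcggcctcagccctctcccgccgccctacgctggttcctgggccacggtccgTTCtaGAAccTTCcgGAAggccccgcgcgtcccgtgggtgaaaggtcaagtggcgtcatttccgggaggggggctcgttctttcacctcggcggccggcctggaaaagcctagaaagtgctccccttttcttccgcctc

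The promoters of Hspa5 and Hsp90b1, the HSP70 and HSP90 of the endoplasmic reticulum (ER), are shown because their genes answer to a different stress, unfolded protein in the ER. Capitals mark the ER stress element ERSE, CCAAT and CCACG with 9 bases between them, on either strand. Hspa5 held 1 exact copy and Hsp90b1 held 2. Looser copies were not searched, so these are not counts of all such elements. The only other member with a copy was Dnajc3, so 3 of 65 member promoters held it, all of genes on the ER lumen list, beside 0.172% of all promoters.
Hspa5, chr2:34771840-34772139, plus strand: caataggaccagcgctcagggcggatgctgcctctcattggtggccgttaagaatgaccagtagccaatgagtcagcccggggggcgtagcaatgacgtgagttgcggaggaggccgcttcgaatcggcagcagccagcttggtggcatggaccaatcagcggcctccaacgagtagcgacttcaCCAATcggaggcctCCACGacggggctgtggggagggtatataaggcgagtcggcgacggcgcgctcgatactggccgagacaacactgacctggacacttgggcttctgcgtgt
Hsp90b1, chr10:86705395-86705694, minus strand: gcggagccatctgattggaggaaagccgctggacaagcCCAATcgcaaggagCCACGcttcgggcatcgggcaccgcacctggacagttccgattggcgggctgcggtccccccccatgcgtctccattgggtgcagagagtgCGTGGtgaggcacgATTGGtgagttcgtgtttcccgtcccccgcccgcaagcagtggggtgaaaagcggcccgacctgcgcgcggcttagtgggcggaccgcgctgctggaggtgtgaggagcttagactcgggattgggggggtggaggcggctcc

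The shorter repeat is common: GAANNTTC or TTCNNGAA, in either order, was found in 19 of 65 member promoters and in 15.7% of all promoters. It was present in 4 of the 5 heat-inducible members with an entry (Hspa1a, Hspa1b, Hspb1 and Hsph1) and in 2 of 5 constitutive ones (Dnaja1 and Dnajb6). A match describes letters in this window and is not evidence that a factor binds. Hspa8, Hsp90aa1, Hsp90ab1, Hspa9 and Cct4 were among the 15 members with no entry.

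Most members were expressed. Of the 80, 68 (85.0%) were detected, beside 58.6% of all protein-coding genes, and 21 had a mean of 100 TPM or more, a level that 7.27% of protein-coding genes reached. The median member stood at 20.6 TPM in replicate 1 and 21.1 in replicate 2, beside 3.99 and 3.89 for all protein-coding genes and 20.6 in both libraries for those that were detected. Together the members held 1.29% ± 0.0117 (SD, n = 2) of all TPM. By family, HSP70 genes held 30.3% ± 0.531 of the members' TPM, chaperonin genes 23.2% ± 0.264 and HSP90 genes 22.4% ± 0.618, while the 45 J-domain genes together summed to 60.4% ± 0.986 of the HSP70 sum. Small heat shock proteins held 0.328% ± 0.00832. The 3 highest genes (Hspa8, Hsp90ab1 and Hsp90aa1) held 41.6% ± 0.501.

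**Figure D1:**
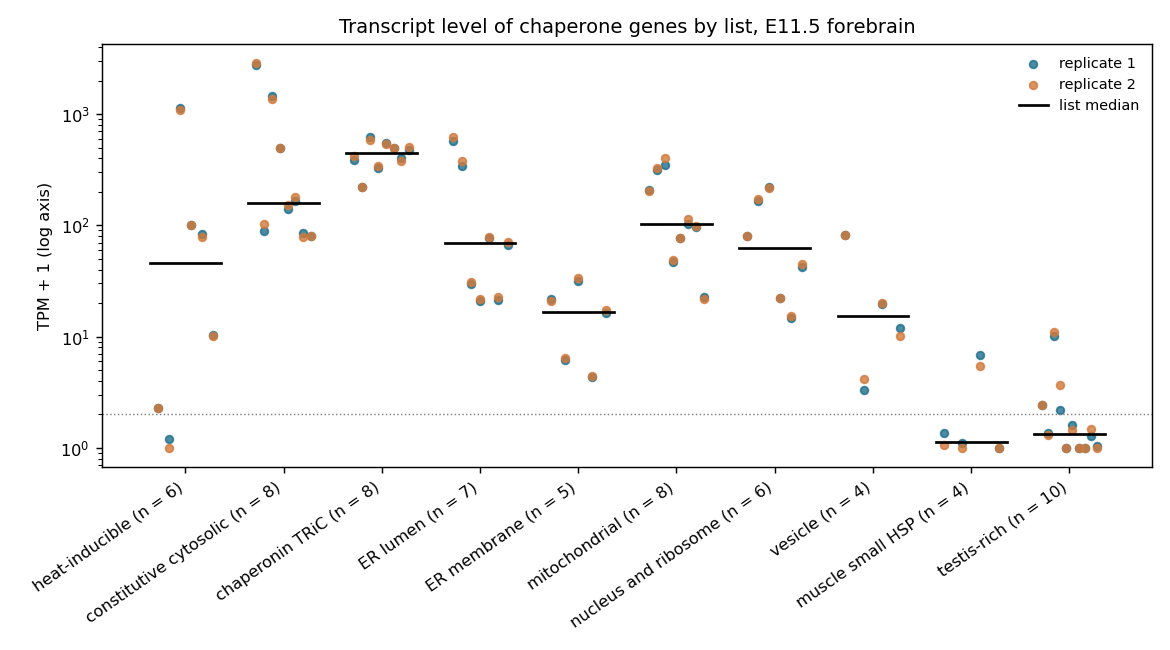
TPM + 1 on a log axis for the genes of each list in replicate 1 and replicate 2 (1 column of points a gene), with a line at the mean of the 2 library medians and a dotted line at 1 TPM. The chaperonin list is compact and high, the heat-inducible list spans from Hsp90aa1 at over 1000 TPM to Hspa1b near 0, and most muscle and testis-rich members lie under the dotted line.

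The constitutive list was compared with the heat-inducible list in each library. The constitutive cytosolic list (Hspa8, Hspa4, Hsp90ab1, Dnaja1, Dnaja2, Dnajb6, Dnajc7 and Dnajc2) had a median of 152 TPM in replicate 1 and 164 in replicate 2, with all 8 measured genes detected. The heat-inducible list (Hsp90aa1, Hsph1, Dnajb1, Hspb1, Hspa1a and Hspa1b) had a median of 46.0 and 43.1 TPM, with 5 of 6 detected. The medians of log2(TPM + 1) differed by 2.46 ± 0.130 (SD, n = 2), in favour of the constitutive genes in both libraries. The size of this difference rested on the near-identical Hspa1a and Hspa1b counting as separate genes: with their TPM summed as 1 gene it was 0.97. The lists overlapped widely, since Hsp90aa1 stood above every constitutive gene except Hspa8 and Hsp90ab1, and Hsph1 and Dnajb1 stood among the lowest constitutive genes. A wider heat-inducible list, which adds Dnajb4, Dnaja4, Hspa4l, Hspb8, Hspd1 and Hspe1 and takes Dnaja1 from the constitutive side, gave 1.80 ± 0.0299.

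**Figure D2:**
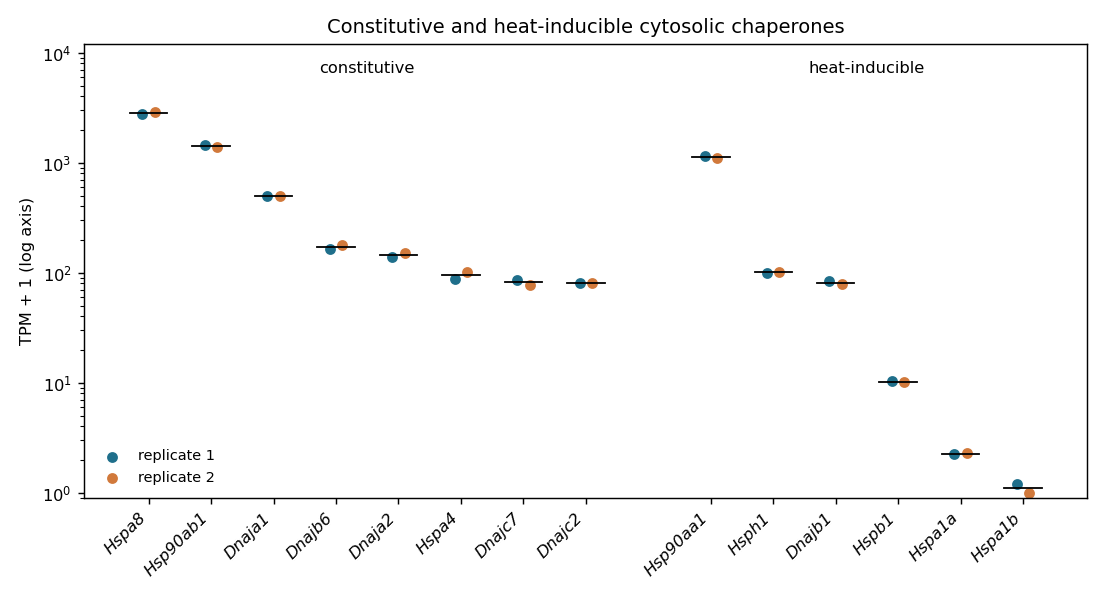
TPM + 1 on a log axis for each constitutive gene (left) and heat-inducible gene (right), with 1 point a library and a line at their mean. The 2 points of a gene lie close together, and among the heat-inducible genes only Hspb1, Hspa1a and Hspa1b lie below every constitutive gene.

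The HSP70 genes of the cytosol differed the most. Hspa8, the constitutive HSC70 (chr9:40800984-40810087, plus strand), stood at 2776 TPM in replicate 1 and 2864 in replicate 2 and was 13th highest of all protein-coding genes. Hspa1a (chr17:34969190-34972156, minus strand) stood at 1.26 and 1.28 TPM, from 55.4 and 81.1 expected counts. Hspa1b (chr17:34956436-34959238, minus strand) stood at 0.19 TPM from 7.81 expected counts in replicate 1 and was listed at 0 in replicate 2, where 3 counts would be 0.0502 TPM. Hspa8 was therefore higher than both stress-induced copies together by 1915 times and 2237 times, a log2 ratio of 11.02 ± 0.159 (SD, n = 2). The copies share 58.8% of the 50-base stretches of the longest Hspa1a transcript, so how the few reads divide between them is uncertain. Hspa1l, a testis-rich gene beside them, stood at 1.40 and 1.43 TPM. Of its exons, 1778 bases overlap the opposite-strand gene Gm10501, and 564 bases of Hspa1a exons overlap the opposite-strand gene Gm20481. The handling of strand is not given in the sources used here. Whether all reads counted for Hspa1a and Hspa1l are their own was therefore not tested, which also limits the ratio to Hspa8.

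Hspa8 held 72.3% ± 0.335 of all HSP70 TPM. Next came the compartment-specific genes: Hspa5 in the ER at 575 and 620 TPM, and Hspa9, the mitochondrial mortalin, at 208 and 204. Hspa8 exceeded Hspa5 by 4.72 ± 0.147 times and Hspa9 by 13.7 ± 0.487 times. The nucleotide exchange factors of the HSP110 type followed. Constitutive Hspa4 stood at 87.4 and 101 TPM and heat-inducible Hsph1 at 99.3 and 100, and their ratio was 0.880 in replicate 1 and 1.01 in replicate 2. Over transcripts of 1000 nt or longer, which leave out the 630-nt retained-intron transcript Hspa4-202 (10.2 and 23.2 TPM), Hspa4 stood at 77.2 and 77.5 TPM, and its ratio to Hsph1 was 0.778 ± 0.00584. By expected counts the ratio was 0.800 ± 0.0045, so Hsph1 was the higher gene in both pools on these measures and in replicate 1 alone by gene TPM. The third member of that type, Hspa4l, stood at 39.8 and 42.2 TPM. The other HSP70 genes were low: Hspa13, of the ER, at 28.9 and 30.2 TPM, Hspa2 at 3.46 and 3.44, Hspa12a at 3.71 and 3.19, and Hspa12b at 3.25 and 4.38.

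In the HSP90 family the stress-induced gene was not low. Hsp90ab1, the constitutive HSP90 beta (chr17:45567775-45573271, minus strand), stood at 1440 TPM in replicate 1 and 1378 in replicate 2. Hsp90aa1, the inducible HSP90 alpha (chr12:110690605-110702728, minus strand), stood at 1141 and 1093 TPM. These are ranks 45 and 59 among protein-coding genes, and the log2 ratio was 0.34 ± 0.00132 (SD, n = 2), or 1.26 times in each library. That ratio depended on how the Hsp90aa1 reads were spread over transcripts. A 711-nt coding transcript, Hsp90aa1-208, was given 51.4% ± 1.32 of the gene's TPM, and the 3281-nt Hsp90aa1-202 was given 28.1% ± 1.35. Over transcripts of 1000 nt or longer, Hsp90aa1 held 416 and 486 TPM and Hsp90ab1 held 1345 and 1315, a ratio of 2.97 ± 0.374. By expected counts, which are not per length, it was 1.82 ± 0.123. Hsp90ab1 was the higher gene in each of these, by 1.26 to 3.23 times.

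J-domain proteins choose the clients of HSP70. Dnaja1, a constitutive partner of Hspa8, had the highest gene TPM of them, 497 and 499, and held 21.2% ± 0.133 of all J-domain TPM. The heat-inducible Dnajb1, HSP40, stood at 82.5 and 77.1 TPM, lower than Dnaja1 by 6.25 ± 0.326 times. Both values and the rank depended on short transcripts. Over transcripts of 1000 nt or longer Dnaja1 held 186 and 192 TPM, below Dnajc9 at 221 and 215, with 11.0% ± 0.0595 of the J-domain TPM. It then exceeded Dnajb1, which has a single transcript, by 2.37 ± 0.166 times, and by expected counts by 4.70 ± 0.290 times. Dnaja2 stood at 139 and 151 TPM, and Dnajb6, which holds back aggregates of glutamine-rich proteins, at 165 and 177. Dnajc7, which also binds HSP90, stood at 84.5 and 77.1 TPM, close to Dnajb1 in both libraries. Dnaja4, another gene on the wider heat-inducible list, was near the detection limit at 2.43 and 1.79 TPM, and 1581 bases of its exons overlap the opposite-strand gene Wdr61. Dnajb4 stood at 15.1 and 15.7 TPM.

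Small heat shock proteins hold unfolded proteins in solution without ATP. Of the 8 members, 4 were detected, beside the 58.6% of all protein-coding genes given above. Hspb1, HSP27, which heat induces, stood at 9.40 and 9.08 TPM. Hspb8 stood at 7.77 and 6.32 TPM and Hspb6 at 5.87 and 4.39. The highest, Hspb11 at 18.8 and 21.5 TPM, is better known as a part of the transport machinery of cilia. Hspb2, Hspb3 and Hspb7, of the muscle list, and Hspb9, of the testis-rich list, were not detected. Of 6 skeletal muscle markers 2 were detected, with Mylpf highest at 8.78 and 7.57 TPM, and their sum was 13.9 and 11.4 TPM. A link between these markers and the small heat shock proteins was not tested.

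The transcription factors and co-chaperones of the response were measured beside these genes. Hsf1, the main activator of heat shock genes, stood at 48.9 and 43.5 TPM, and Hsf2 at 39.5 and 42.9. Hsbp1, a small protein that binds Hsf1, stood at 240 and 237 TPM, and the other 4 of 7 factors tested were not detected, the lowest being Hsf4 at 0 and 0.04 TPM. All 13 HSP70 co-chaperones were detected. The highest were the ubiquitin ligase Stub1 (194 ± 12.6 TPM), Bag1 (165 ± 2.15), St13 (149 ± 0.431) and Hspbp1 (82.1 ± 0.297), and the lowest was Bag3, a stress-induced exchange factor, at 4.32 ± 0.283 (SD, n = 2 for each). All 14 genes on the HSP90 co-chaperone list were detected as well. That list includes Trap1, at 65.7 and 61.7 TPM, which is the mitochondrial HSP90 itself and not a co-chaperone. Ptges3 (p23) led at 527 ± 30.4 TPM, with Fkbp4 at 486 ± 18.6, Stip1, which joins HSP70 to HSP90, at 335 ± 8.61, and Ahsa1 at 167 ± 3.59. The lowest was Fkbp5, a glucocorticoid-induced gene, at 8.05 ± 0.148. Among 7 immediate early genes, which dissection and stress can induce, 5 were detected, beside 58.6% of all protein-coding genes. Ier2 stood at 53.2 and 54.3 TPM, Jun at 48.0 and 49.5 and Dusp1 at 29.8 and 28.1, while Egr1 stood at 1.43 and 2.17 and Atf3 at 1.57 and 1.93. Fos, at 0.45 and 0.83 TPM, and Fosb, at 0 and 0.01, were not detected.

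TRiC holds 8 different subunits in each ring in equal number. All 8 were above 200 TPM in both libraries. The highest was Cct3 at 621 and 578 TPM, followed by Cct5 at 549 and 537, Cct6a at 494 and 493, and Cct8 at 477 and 505. Tcp1, the first subunit, stood at 389 and 417 TPM, Cct7 at 402 and 378, Cct4 at 325 and 341, and Cct2 at 221 and 219. The order of Cct6a and Cct8, and of Tcp1 and Cct7, differed between the libraries, while Cct2 was lowest in both. The subunits had an SD of 0.46 ± 0.0122 on the log2 scale, with a ratio of highest to lowest of 2.81 in replicate 1 and 2.63 in replicate 2. A 472-nt transcript of Cct3 with a retained intron, Cct3-203, was given 27.6% ± 0.866 of the gene's TPM. Over transcripts of 1000 nt or longer Cct3 stood at 442 and 419 TPM, below Cct5 at 526 and 510. The testis-rich relatives Cct6b and Cct8l1 were not detected.

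The 6 subunits of prefoldin, which hands actin and tubulin to TRiC, had a wider spread, with an SD of 0.93 ± 0.0446 on the log2 scale. By gene TPM they ran from Pfdn5 at 287 ± 9.14 TPM, Vbp1 at 191 ± 17.6 and Pfdn6 at 156 ± 4.62 down to Pfdn2 at 47.1 ± 4.47. By expected counts, which are not per length, Vbp1 was the highest at 4029 and 6635, and Pfdn5 held 1814 and 2758. Unlike for TRiC, the spread of prefoldin is given by gene TPM alone. All 9 genes on the prefoldin and cofactor list were detected, including Txndc9 at 123 ± 8.70 TPM. All 6 substrate genes tested, actins and tubulins, were detected as well, up to Actb at 4910 ± 309 TPM and Tuba1a at 4819 ± 480.3.

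**Figure D3:**
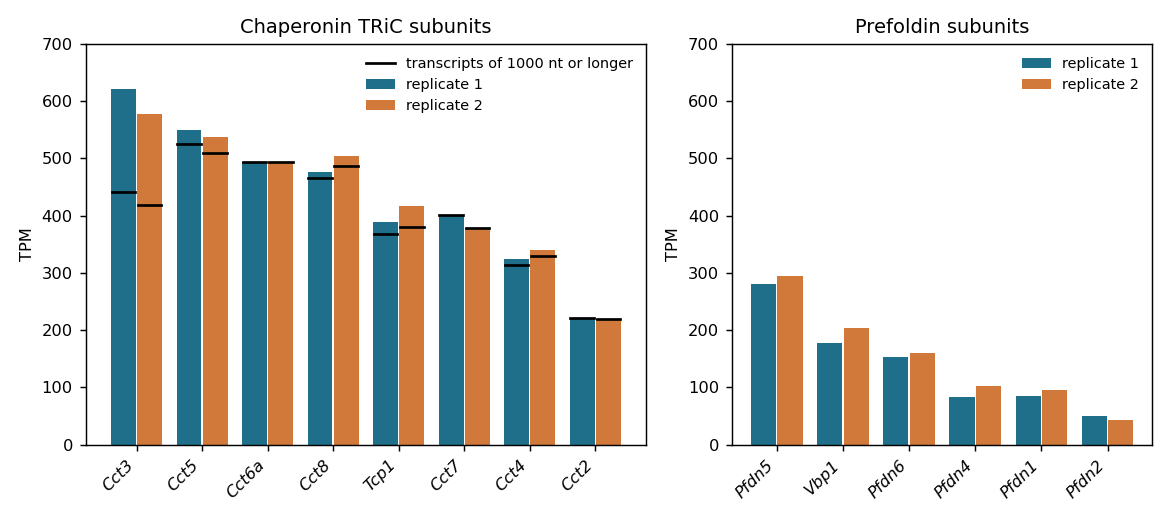
TPM of the 8 TRiC subunits (left) and the 6 prefoldin subunits (right) as bars from 0 for each library, with black lines at the TRiC level over transcripts of 1000 nt or longer. TRiC bars lie between 219 and 621 TPM, and the line falls well below the bar only in Cct3.

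All 7 members of the ER lumen were detected. Hspa5 (BiP) led, and Hsp90b1 (GRP94) followed at 340 and 375 TPM, 0.598 ± 0.00921 of the Hspa5 level. The J-domain partners of Hspa5 were lower. Dnajb11 stood at 75.9 and 76.9 TPM and Dnajc10, which reduces disulphide bonds, at 66.1 and 70.3, while Dnajc3, which also restrains the kinase PERK, stood at 20.4 and 21.9 and Dnajb9, induced by ER stress, at 20.0 and 20.8. All 7 were higher in replicate 2 after scaling, by a median of 0.10 on the log2 scale, beside 41 of 67 members and a median of 0.03 over the members with 100 or more counts. Over all genes with 100 or more counts the median was 0.0015. The direction was not particular to this list: on the prefoldin and cofactor list 8 of 9 genes were higher in replicate 2 (median 0.14). On the ER membrane list 3 of 5 were (0.11), and on the unfolded protein response list 9 of 15 (0.07). All 15 other genes of the unfolded protein response list were detected, led by the lectin chaperone Calr at 572 ± 5.36 TPM, the disulphide isomerases Pdia6 at 406 ± 3.44 and Pdia3 at 329 ± 14.4, and Manf at 199.6 ± 12.5. The lowest was the stress sensor Ern1 at 5.27 ± 1.27. In the ER membrane, Dnajc1 stood at 30.5 and 32.6 TPM, Dnajb12 at 20.8 and 19.9, Dnajc18 at 15.1 and 16.4, Dnajb14 at 5.20 and 5.45, and Dnajc16 at 3.35 and 3.42.

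The mitochondrial list was also detected in full, with a median of 98.9 TPM in replicate 1 and 104 in replicate 2. Hspe1 stood at 345 and 403 TPM and Hspd1 at 315 and 327, within 1.23 times of each other in both libraries. By expected counts, which are not per length, Hspe1 held 3570 and 6036 and Hspd1 held 10516 and 16198. Whether the element printed above bears on either level was not tested. The annotated exons of Hspe1 and Hspd1 overlap by 112 bases on opposite strands. Dnajc15 stood at 102 and 112 TPM and Dnajc19 at 95.3 and 97.0, both of which belong to the protein import motor that Hspa9 drives. All of the Dnajc15 TPM came from a single transcript that is not typed as coding. Dnajc11, of the inner membrane organising system, stood at 76.6 and 75.4 TPM, Dnaja3, the J-domain partner of Hspa9 in the matrix, at 45.6 and 47.9, and Dnajc30 at 21.5 and 20.7.

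Members with work in the nucleus and on the ribosome were all detected. Dnajc9, a chaperone of histones, stood at 221 and 215 TPM and Dnajc8, of the splicing machinery, at 164 and 171. Dnajc2, which joins the ribosome, stood at 79.8 and 79.7 TPM. Dnajc24, needed to make diphthamide, stood at 40.9 and 43.7 TPM, Dnajc17, also of the splicing machinery, at 20.99 and 21.3, and Dnajc21, a ribosome assembly factor, at 13.7 and 14.5. Of the vesicle list, Dnajc5 (cysteine string protein of synaptic vesicles) stood at 81.5 and 81.0 TPM, Dnajc13 of the endosome at 18.5 and 19.2, Dnajc27 at 10.8 and 9.15, and Dnajc6, the neuronal auxilin that strips clathrin from vesicles, at 2.34 and 3.13.

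The remaining 12 members were on none of these lists, and 11 were detected. They were Hspa2, Hspa12a, Hspa12b, Hspb11, Dnajb2, Dnajb5, Dnajc4, Dnajc12, Dnajc14, Dnajc22, Dnajc25 and Dnajc28, and ranged from Dnajc22 at a mean of 0.215 TPM to Dnajc14 at 21.6. Of the Dnajc14 exons, 1114 bases overlap the opposite-strand gene Ormdl2 and 138 overlap Tmem198b, also on the opposite strand. Dnajb2, best known in neurons, stood at 17.5 and 17.9 TPM. Among the 10 testis-rich members 3 were detected, namely Dnajb3, Dnajb7 and Hspa1l. Of the 12 members not detected in all, 7 were testis-rich (Dnajb13, Cct6b, Hspb9, Cct8l1, Dnajc5b, Dnajb8 and Dnajc5g) and 3 were muscle small heat shock proteins (Hspb2, Hspb3 and Hspb7), and the others were Hspa1b and Dnajc22. Hspb7, Dnajc5b, Dnajb8 and Dnajc5g had no counts in either library, where 3 counts would be 0.0735 to 0.246 TPM in replicate 1 and 0.0508 to 0.170 in replicate 2. Germ cell marker genes were undetected in these pools, with Ddx4 highest at 0.67 and 0.64 TPM, while Dnajb3 of the testis-rich list stood at 9.07 and 9.88. A link between these markers and the testis-rich members was not tested.

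The pools agreed closely. Of the 67 members with 100 or more counts summed, none differed by 1.5-fold or more between the pools, where 2.78% of 13510 genes did. The largest difference was in Dnajc6, with 171 counts in replicate 1 and 356 in replicate 2, a log2 ratio of 0.53 (95% Clopper-Pearson interval 0.26 to 0.80, for counting error only). Next were Dnaja4 with a log2 ratio of -0.46, Hspb6 with -0.43 and Dnajb5 with -0.42, all higher in replicate 1. Dnajb7, just under the count minimum with 23 and 76 counts, was higher in replicate 2 by 1.17 on the log2 scale (0.51 to 1.94). Among members with 1000 or more counts the SD of the log2 ratio was 0.11 over 48 members, beside 0.14 over 8574 protein-coding genes. With 1 library from each pool there is no replicate check on any single difference.

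**Figure D4:**
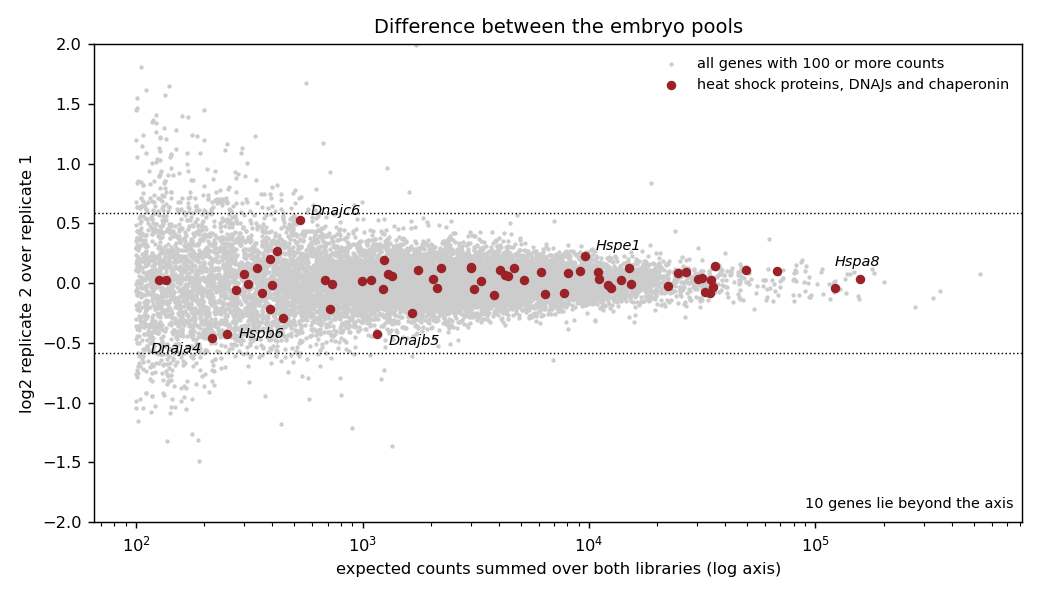
Log2 ratio of replicate 2 over replicate 1, scaled by library size, against expected counts summed over both libraries on a log axis; red points are the 67 members, grey points all genes with 100 or more counts, and dotted lines mark 1.5-fold. All red points lie between the dotted lines, with Dnajc6 nearest to one of them; 10 grey genes lie beyond the axis.

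Transcript shares showed where a gene's TPM was not one mRNA. Of 43 members at 20 TPM or more, 14 had a transcript other than the highest with 20% or more of the gene's TPM. In Hspa8 the coding transcript Hspa8-202 held 55.5% ± 1.13 and a 456-nt transcript with a retained intron, Hspa8-204, held 26.8% ± 2.79. Over transcripts of 1000 nt or longer Hspa8 stood at 1895 and 1956 TPM. The small nucleolar RNAs Snord14c, Snord14d and Snord14e overlap annotated exons of Hspa8 on the same strand by 86, 86 and 90 bases.

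Transcripts of non-coding types took a large share of several members. In Dnajc15 the only transcript was of a non-coding type, so coding transcripts held 0% of its TPM in both libraries. Types other than coding or retained intron held 63.2% ± 2.69 of Dnajc1 and 52.8% ± 2.19 of Dnajc7. In Dnajc2 the retained-intron transcript Dnajc2-207 held 41.6% ± 7.56, and in Dnajc5 the transcript Dnajc5-204, marked for nonsense-mediated decay, held 49.5% ± 4.05. In Hspa4 the processed transcript Hspa4-203 held 43.3% ± 3.65 and the coding Hspa4-201 held 39.4% ± 4.44. Cct8-209, marked for decay, held 29.3% ± 2.09 of Cct8, and the processed transcript Dnajc24-202 held 24.6% ± 1.77 of Dnajc24. Other members divided their TPM between coding transcripts. Dnaja1-205 (916 nt) held 40.2% ± 0.00363 and Dnaja1-201 (3376 nt) 32.0% ± 0.313. Tcp1-209 held 63.5% ± 7.29 and Tcp1-201 held 27.9% ± 4.76, and Cct4-204 held 55.3% ± 0.938 and Cct4-201 held 39.2% ± 0.822. In Dnajc24 the coding Dnajc24-201 held 43.6% ± 4.19 and the coding Dnajc24-205 held 26.0% ± 1.79. Dnajb12 (51.9% ± 1.69 and 33.7% ± 2.55) and Hspb11 (50.6% ± 10.2 and 42.0% ± 7.31) were divided likewise, and in Hspa4l a transcript with no match in the annotation held 23.0% ± 0.293. Among the 40 members whose transcripts all matched, coding transcripts held a median of 95.6% of the TPM, 90% or more in 26 members and under 50% in 5 (Dnajc15, Dnajc1, Hspa4, Dnajc5 and Dnajc7).

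**Figure D5:**
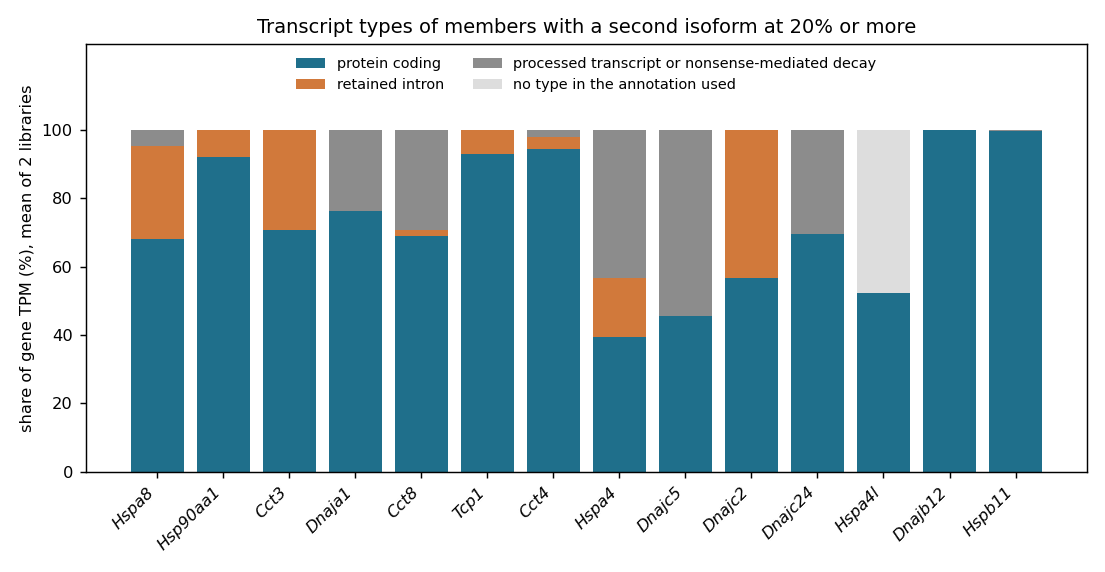
Stacked bars of the share of gene TPM (percent, mean of the 2 libraries) by annotated transcript type for the 14 members with a further transcript at 20% or more. Retained-intron transcripts are largest in Dnajc2, Cct3 and Hspa8, and transcripts of other non-coding types are largest in Dnajc5 and Hspa4.

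The uncertainty of dividing reads between genes was small for most members. The authors' posterior SD of the count, which measures the uncertainty of dividing reads between genes, was over 1% of the count in both libraries in 7 of 67 members with 50 or more counts in each, beside 5.54% of 12234 protein-coding genes. They were Hspa1a, Hspa1l, Hspb1, Dnaja4, Dnajc19, Dnajc25 and Dnajc30. Among these 7 the share was highest for Hspa1l, at 15.7% and 12.8%, and Hspa1a stood at 7.08% and 3.55%. Hspa1b lay under the count minimum, and its posterior SD was 43.3% of 7.81 expected counts in replicate 1. For 41 of the 67 members it was 0 in both libraries.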

How the data were processed

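The deposited notes give mm10 with GENCODE M4 as the genome and annotation. Not given in the sources used here are the aligner, the quantifier and whether strand was used. The deposited gene and transcript tables hold expected counts, estimated by dividing shared reads between transcripts, and the authors' TPM and FPKM, scaled for length over all entries, with spike-ins (12.8% ± 0.194 of TPM). The deposited transcript tables give each isoform's percent of its gene, and the deposited score columns give bounds of a credibility interval and a posterior SD. Short transcripts have less certain TPM.

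Names and types came from GENCODE M21 by identifier. The members and lists were chosen with earlier results of these data known, so no p-value is given, and values rest on 2 pools, with SD over them. All members could be named, with per-library values for the lists described, and of other genes the 4 highest and the lowest of each list. Marker genes, Trap1 and genes of overlapping loci were named after their values were seen. Expected counts were rounded and scaled by TMM (edgeR 4.0.16, R 4.3.3), with 0.5 counts added in ratios. DESeq2 1.42.0 size factors were an alternative. The pool comparison was tested on simulated counts for 13501 genes: 200 of 200 genes changed 2-fold were recovered and 25 unchanged genes were called. The simulated counts held counting error only (Poisson draws), and the changed genes had an expected sum of 200 or more counts. The simulation therefore checks the calculation and not how real pools vary, where 375 of 13510 genes were called.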

Additional observations from a re-analysis of the deposited data

How the results depend on the processing

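The 3 log2 differences (constitutive minus heat-inducible, Hspa8 and Hsp90ab1) kept their sign under the alternatives run. With 2 libraries, leaving 1 out gives the other's value and is no check of stability. The number of detected members (68) was 68 at a minimum of 0.5 TPM, 57 at a minimum of 5 TPM, 65 by FPKM and 69 at a minimum of 10 counts. The share over all protein-coding genes is not given for these settings. The constitutive minus heat-inducible difference (2.46) was 0.97 with only detected members or with Hspa1a and Hspa1b summed, 1.80 with the wider list and 3.46 with means in place of medians. The log2 ratio of Hspa8 to the stress-induced copies (11.02) was 10.07 by expected counts and 10.46 over transcripts of 1000 nt or longer. That of Hsp90ab1 to Hsp90aa1 (0.34) was 0.33 by posterior mean TPM, 0.86 by expected counts and 1.56 over the longer transcripts. The spread of the chaperonin subunits (0.46) was 0.41 by expected counts and 0.41 over the longer transcripts, and 0.49 without Cct6a. Members at 1.5-fold or more between the pools numbered 0 at 100 counts, 3 of 71 at 10 counts and 7 of 76 at 1 count, where 13.6% and 28.5% of all genes did. The members' share of TPM (1.29%) was 1.25% by posterior mean TPM, 1.63% of protein-coding TPM and 1.59% of expected counts. The alternatives over longer transcripts and without Cct6a were chosen after seeing the data. No paired analysis was possible because there was 1 group. Depth limits the lowest members: Hspa1a rested on 136 counts over both libraries, and intervals cover counting error only.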
